A study of Homo sapiens with 15 samples.

Results

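The genes described here encode the enzymes, transporters and regulators that carry glucose to pyruvate and lactate, admit pyruvate to the mitochondrion and run the pentose phosphate branch. Expression was measured in sorted fractions of PEO1, a human cell line established from an ovarian cancer. The genes were taken from a list of 34 names, and each was represented by its brightest probe set that names 1 gene. Of the 34, 32 were measured among 19775 genes, and the lactate transporters SLC16A1 and SLC16A3 are not analysed here. The groups were CD90+/CD133+ cells, CD90+/CD133- cells and CD90-/CD133- cells, with 5 arrays each and replicate numbers 1 to 5. All 3 fractions came from the same parental line kept in RPMI-1640 with 10% serum, and the labels list no treatment besides staining and sorting, so by the labels the groups differ in the gate and represent 1 line. The methods describe biological replicates for the CD90+/CD133- and CD90-/CD133- fractions. Where the cultures were not separate, p-values measure only the spread between these samples.

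Glycolysis splits glucose into pyruvate step by step, and several steps can be run by more than 1 isoenzyme, each from its own gene. Hexokinase traps glucose, phosphofructokinase sets the pace under the control of the PFKFB enzymes, and lactate dehydrogenase and the pyruvate dehydrogenase complex decide between lactate and mitochondrial oxidation. Cancer cells are known for a high glycolytic rate in the presence of oxygen, and the hypoxia-inducible factors are known activators of many of these genes.

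The sort was visible in the genes of its own markers. THY1, which encodes CD90, had an intensity of 728.5 to 2171 in CD90+/CD133+ cells and 795.3 to 1221 in CD90+/CD133- cells, against 57.76 to 101.3 in CD90-/CD133- cells. PROM1, which encodes CD133, lay at 429.3 to 1652 in CD90+/CD133+ cells, 21.46 to 156 in CD90+/CD133- cells and 16 to 44.07 in CD90-/CD133- cells. Values are intensities, in linear arbitrary units per probe set, and values under 16 were set to 16. Median intensity per array lay between 29.41 and 32.36. All 10 measured markers of ovarian carcinoma epithelium were above 32 on average in every fraction, although their summed level was 32680 to 45600 in CD90+/CD133+ cells and 36510 to 48920 in CD90+/CD133- cells, against 51910 to 64520 in CD90-/CD133- cells. By the test given below, EPCAM was higher in both CD90+ fractions, and 5 of the 10 were lower in CD90+/CD133+ cells and 4 in CD90+/CD133- cells, which were KRT7, KRT8, KRT18 and KRT19 in both and WT1 in CD90+/CD133+ cells. Of 8 stromal markers 3 (COL3A1, LUM and PDGFRA) were at the floor on all 15 arrays, and so were CDH5 and KDR of 4 endothelial markers and PTPRC of 4 blood markers. The 8 stromal markers summed to 275.2 to 334.8 in CD90+/CD133+ cells and 255.8 to 289.2 in CD90+/CD133- cells, against 347.6 to 413.1 in CD90-/CD133- cells. Among them FAP was lower, with a mean of 36.47 in CD90+/CD133+ cells and 35.4 in CD90+/CD133- cells, against 143.9 in CD90-/CD133- cells, while COL1A1 was higher in CD90+/CD133+ cells (log2 fold change 0.26, adjusted p = 0.0386) and DCN in CD90+/CD133- cells (0.33, adjusted p = 0.0191). The 4 endothelial markers did not pass in either comparison. The 4 blood markers summed to 191.1 to 269.3 in CD90+/CD133+ cells and 187.2 to 264.4 in CD90+/CD133- cells, against 145.9 to 176.7 in CD90-/CD133- cells, and CD14 was higher in both (log2 fold change 1.00, adjusted p = 0.00292, and 0.96, adjusted p = 0.00356). The part of these marker genes in the changes below was not tested. In bulk samples, fewer cells of a type and less RNA per cell cannot be told apart.

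In CD90+/CD133- cells, 10 of the 32 genes were higher and 8 were lower than in CD90-/CD133- cells, and 14 did not pass the test. The test was limma with the replicate number as a block, fitted to all 15 arrays and 19775 genes, with a Benjamini-Hochberg adjusted p under 0.05. Of all genes tested, 32.4% were called, 14.8% as higher and 17.6% as lower, while 31.2% of the 32 genes were higher and 25% lower. These shares are a description, since the genes were listed with earlier results of these arrays known. The median log2 fold change of the 32 genes was -0.03, beside 0.00 over all genes. All genes include many dim ones, since 32.7% to 34.5% of probe sets were under 16 on an array. When only the 9988 brighter genes (mean log2 over 6) were tested, 5815 of them were called. In that fit 9 members were higher and 10 lower, and the median over the brighter genes was -0.03. SLC2A3, HKDC1, PFKFB1, PFKFB2 and ALDOC were too dim to be in it, so these counts are not out of 32. Past 1.5-fold, the threshold the methods state, 8 genes were higher and 0 lower, where the background over all genes was 6.50% higher and 6.47% lower. Values of 8 genes did not overlap between the fractions, 4 of them higher and 4 lower (12.5% each), where 7.72% of all genes were higher and 8.26% lower without overlap.

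In CD90+/CD133+ cells the counts were 11 higher, 7 lower and 14 not passing, against backgrounds of 31.2% called, 14.2% higher and 17.0% lower. The median log2 fold change was -0.02. When only the 9988 brighter genes were tested, 5647 of them were called, with 11 members higher and 9 lower. SLC2A3, HKDC1, PFKFB1, PFKFB2 and ALDOC were again not among those tested. Here 12 genes did not overlap with CD90-/CD133- cells, 7 higher and 5 lower (21.9% and 15.6%), beside 8.07% and 8.78% of all genes, and PDK3 and PDHA1 among the lower ones did not pass the test. Both comparisons use the same 5 CD90-/CD133- arrays, so their values are given side by side and their likeness is no separate result. A table of the study, drawn from the same arrays, shows genes selected as up-regulated in CD90+ cells. It lists 7 of the 32 genes (SLC2A1, HK2, HKDC1, PFKP, PFKFB3, PDK4 and ENO2). All 7 were higher in both comparisons, which is not independent evidence. Outside that table, 3 of 25 genes were higher and 8 lower in CD90+/CD133- cells (12% and 32%, beside 14.8% and 17.6% of all genes). In CD90+/CD133+ cells 4 were higher and 7 lower (16% and 28%, beside 14.2% and 17.0%). Setting aside genes selected as up-regulated on these arrays removes higher genes by construction, so no conclusion is drawn from this balance.

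**Figure D1:**
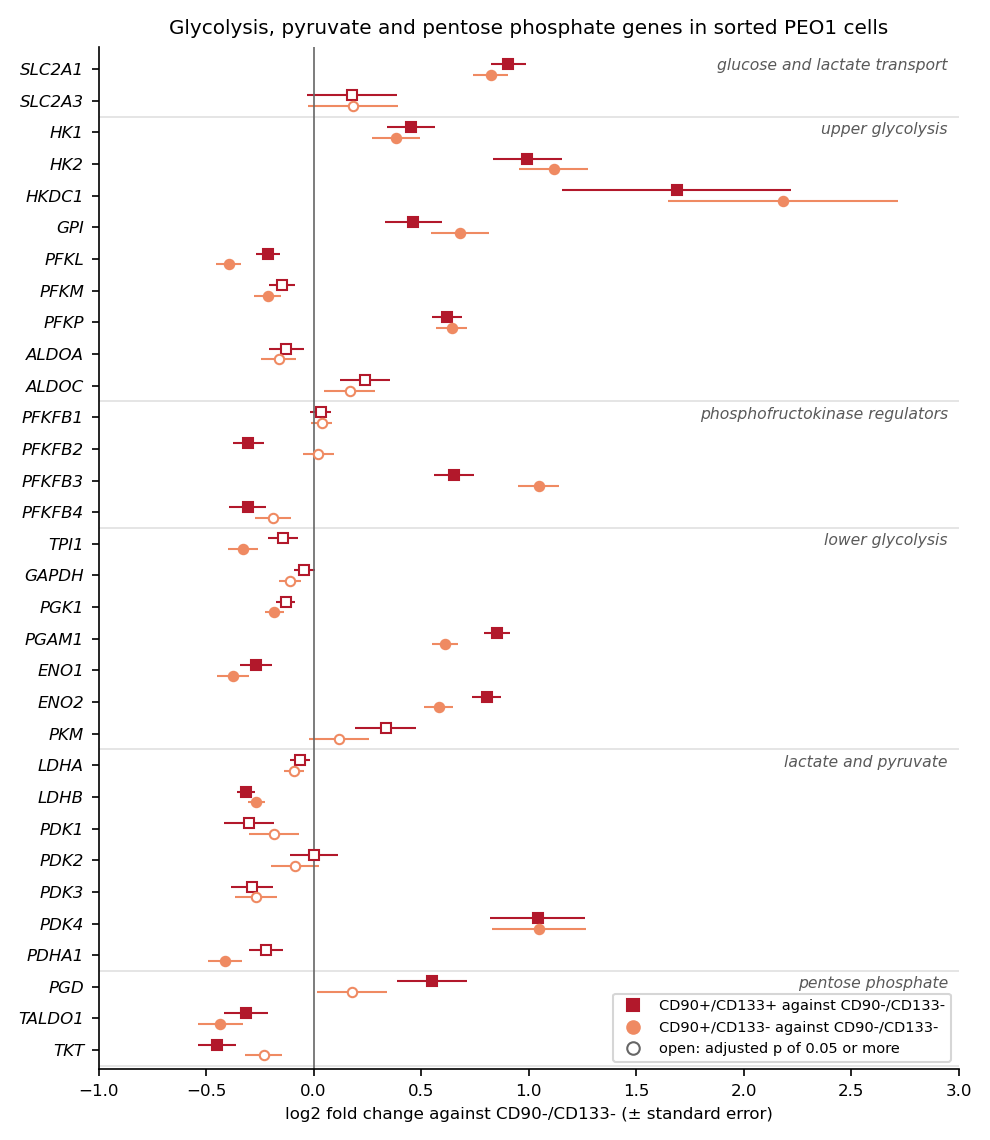
Log2 fold change (x axis, ± standard error from limma) of the 32 genes, grouped by step, in CD90+/CD133+ cells (squares) and CD90+/CD133- cells (circles) against CD90-/CD133- cells, with open symbols where the adjusted p was 0.05 or more. HKDC1 stands farthest to the right, at 1.69 and 2.18, and the largest fall is that of TKT in CD90+/CD133+ cells, at -0.45.

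The hypoxia-inducible factor subunits, measured on the same arrays, were among the genes that rose. HIF1A, the oxygen-regulated subunit of HIF-1, was at 2919 to 4565 in CD90+/CD133+ cells and 4068 to 4870 in CD90+/CD133- cells, against 1377 to 2148 in CD90-/CD133- cells. EPAS1, which encodes HIF-2α, was at 209.5 to 249.5 in CD90+/CD133+ cells and 269.3 to 337.3 in CD90+/CD133- cells, against 36.52 to 61.35 in CD90-/CD133- cells. In neither gene did a CD90+ fraction overlap the CD90-/CD133- fraction. HIF1A was higher by 1.03 on the log2 scale in CD90+/CD133+ cells and by 1.32 in CD90+/CD133- cells (adjusted p = 3.25e-05 and 1.03e-05), and EPAS1 by 2.22 and 2.59 (adjusted p = 5.22e-06 and 2.78e-06). The core of the HIF binding motif is ACGTG or GCGTG, so the promoters of the genes were searched for both on both strands. The window ran from 250 bases before to 50 bases after 1 start per gene in RefSeq (GRCh38.p14), and other starts were not searched. In some genes, among them GPI, PFKP, PGAM1 and GAPDH, this window lay inside the gene and not at its outer end. Promoters of 30 of the 32 genes were found in its promoter table, which left SLC2A3 and PFKFB2. The reverse complement of ACGTG overlaps it in CACGTG, which then counts as 2 matches. Either motif was present in 19 of 30 promoters (63.3%), beside 48.4% of all 35116 promoters of the same length. The count was 6 of 10 among genes higher in CD90+/CD133- cells, 5 of 8 among the lower and 8 of 12 among those not passing, which is 60%, 62.5% and 66.7%.

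Promoters are shown for 3 genes that rose in both CD90+ fractions and for LDHA, which did not pass although it held the most matches (6). They are HK2 (chr2:74833877-74834176, plus strand), PFKFB3 (chr10:6144671-6144970, plus strand), ENO2 (chr12:6914330-6914629, plus strand) and LDHA (chr11:18394313-18394612, plus strand), each read 5′ to 3′ on the strand of its gene, with the motif matches in capitals. A match describes letters only.
HK2: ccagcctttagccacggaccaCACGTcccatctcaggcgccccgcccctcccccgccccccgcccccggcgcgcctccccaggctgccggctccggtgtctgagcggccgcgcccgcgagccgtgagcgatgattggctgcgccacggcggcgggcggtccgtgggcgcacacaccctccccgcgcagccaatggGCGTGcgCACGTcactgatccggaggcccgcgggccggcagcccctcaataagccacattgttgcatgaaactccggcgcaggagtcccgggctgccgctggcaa
PFKFB3: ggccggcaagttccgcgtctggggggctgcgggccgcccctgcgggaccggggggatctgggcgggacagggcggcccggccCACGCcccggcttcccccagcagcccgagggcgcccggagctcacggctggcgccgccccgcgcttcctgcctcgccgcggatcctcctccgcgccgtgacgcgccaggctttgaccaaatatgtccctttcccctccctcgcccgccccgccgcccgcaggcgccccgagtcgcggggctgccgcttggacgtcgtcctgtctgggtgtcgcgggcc
ENO2: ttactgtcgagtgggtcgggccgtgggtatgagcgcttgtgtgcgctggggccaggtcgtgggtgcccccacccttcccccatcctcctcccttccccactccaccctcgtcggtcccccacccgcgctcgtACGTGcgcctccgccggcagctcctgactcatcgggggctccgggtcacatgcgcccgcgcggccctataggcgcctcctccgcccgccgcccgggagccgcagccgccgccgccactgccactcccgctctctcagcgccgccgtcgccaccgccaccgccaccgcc
LDHA: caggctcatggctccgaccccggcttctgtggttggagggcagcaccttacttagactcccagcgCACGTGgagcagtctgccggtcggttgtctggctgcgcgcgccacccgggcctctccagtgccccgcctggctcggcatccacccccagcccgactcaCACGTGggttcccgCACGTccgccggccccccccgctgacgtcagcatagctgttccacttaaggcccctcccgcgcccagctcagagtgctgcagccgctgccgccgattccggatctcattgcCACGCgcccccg
The HK2 promoter holds 3 matches, and those of PFKFB3 and ENO2 hold 1 each. No match was found in the windows searched for HK1, PFKP, PGAM1 or PDK4, which were also higher. Those of PFKP and PGAM1 lay inside the gene, so matches at another start may have been missed.

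Glucose entry and trapping were represented by SLC2A1, HK1, HK2 and HKDC1, all higher in both CD90+ fractions. SLC2A1, the widely expressed glucose transporter GLUT1, had intensities of 349, 421.3, 340.5, 437 and 177.6 in CD90+/CD133- replicates 1 to 5, 407.6, 399.5, 356.3, 401.4 and 222.6 in CD90+/CD133+ cells and 214.4, 216.4, 207.3, 192.2 and 121.3 in CD90-/CD133- cells. Replicate 5 was the lowest in every fraction, and its CD90+/CD133- array overlapped the CD90-/CD133- arrays, but within each number the CD90+ arrays were the higher. The log2 fold change was 0.82 ± 0.08 (standard error) in CD90+/CD133- cells (adjusted p = 0.000119) and 0.91 ± 0.08 in CD90+/CD133+ cells (adjusted p = 7.39e-05). SLC2A3, the neuronal-type transporter GLUT3, was dim, at 25.37 to 52.24 in CD90+/CD133- cells and 19.44 to 94.02 in CD90-/CD133- cells, and did not pass (log2 fold change 0.18, adjusted p = 0.646).

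HK2, the hexokinase typical of tumours and muscle, was at 1181, 859.6, 634.8, 790.6 and 424.4 in CD90+/CD133- cells, at 1108, 842.4, 559.6, 680 and 396.9 in CD90+/CD133+ cells and at 740.6, 306.2, 384.4, 247.5 and 209.3 in CD90-/CD133- cells. The fractions overlapped, with replicate 1 high throughout and replicate 5 low, and HK2 was higher in 5 of 5 pairs of arrays. This was a log2 fold change of 1.12 ± 0.16 in CD90+/CD133- cells (adjusted p = 0.000825) and 0.99 ± 0.16 in CD90+/CD133+ cells (adjusted p = 0.00162). Without the replicate block the adjusted p were 0.0526 and 0.0902. The other probe sets of HK2 were dimmer and had log2 fold changes of 0.24 and 0.20 in CD90+/CD133- cells.

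HKDC1, a hexokinase-like enzyme, was at 44.27, 88.5, 80.12, 83.5 and 724.6 in CD90+/CD133- cells, at 47.34, 77.74, 118.5, 64.24 and 122.3 in CD90+/CD133+ cells and at 16.54, 36.01, 30.24, 26.26 and 20.86 in CD90-/CD133- cells. Neither CD90+ fraction overlapped the CD90-/CD133- fraction, and 1 array, CD90+/CD133- replicate 5, was far above all others. HKDC1 rose by 2.18 ± 0.53 on the log2 scale (adjusted p = 0.0129) in CD90+/CD133- cells and by 1.69 ± 0.53 (adjusted p = 0.0414) in CD90+/CD133+ cells. The second call was lost in 14 of 15 fits that left out an array or a replicate number. Without replicate 5 these became 1.45 (adjusted p = 0.000958) and 1.47 (adjusted p = 0.000909), and without replicate 4 they were 2.31 (adjusted p = 0.0501) and 1.79 (adjusted p = 0.112). With a floor of 64 they were 0.94 (adjusted p = 0.257) and 0.42 (adjusted p = 0.876), and without the block the call in CD90+/CD133+ cells was lost (adjusted p = 0.074). Its 3 other probe sets gave 0.35 to 0.68 in CD90+/CD133- cells.

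HK1, the housekeeping hexokinase, changed least of these genes. It was at 1415, 1418, 1065, 1666 and 1143 in CD90+/CD133- cells, at 1337, 1492, 1603, 1419 and 1149 in CD90+/CD133+ cells and at 1064, 944.5, 989.3, 1091 and 996.4 in CD90-/CD133- cells. Every CD90+/CD133+ array was above every CD90-/CD133- array, and CD90+/CD133- replicate 3 lay within their range. HK1 rose by 0.38 ± 0.11 on the log2 scale in CD90+/CD133- cells (adjusted p = 0.0277) and by 0.45 ± 0.11 in CD90+/CD133+ cells (adjusted p = 0.0132). The first of these was lost in 10 of 15 fits that left out an array or a number, with adjusted p up to 0.125, and the second without replicate 2 (adjusted p = 0.0738).

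The next step is glucose phosphate isomerase, GPI, which was higher in both CD90+ fractions. Its intensities were 2571, 2909, 2214, 2985 and 1321 in CD90+/CD133- cells, 1901, 2448, 1849, 2304 and 1551 in CD90+/CD133+ cells and 1468, 1338, 1481, 1664 and 1273 in CD90-/CD133- cells. Both CD90+ fractions overlapped CD90-/CD133- cells, and in replicate 5 the CD90+/CD133- array was nearly level with its pair. GPI rose by 0.68 ± 0.13 on the log2 scale in CD90+/CD133- cells (adjusted p = 0.0044) and by 0.46 ± 0.13 in CD90+/CD133+ cells (adjusted p = 0.0287). The second was lost without the block (adjusted p = 0.144) and in 11 of 15 fits that left out an array or a number (adjusted p up to 0.106).

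The 3 subunit genes of phosphofructokinase did not move together. PFKP, the platelet-type subunit, was at 2156, 2145, 1786, 1995 and 1412 in CD90+/CD133- cells, at 2034, 1878, 1878, 1866 and 1620 in CD90+/CD133+ cells and at 1497, 1181, 1272, 1100 and 1018 in CD90-/CD133- cells. Only replicate 5 of CD90+/CD133- cells fell within the CD90-/CD133- range. The log2 fold change was 0.64 ± 0.07 (adjusted p = 0.000191) in CD90+/CD133- cells and 0.62 ± 0.07 (adjusted p = 0.000231) in CD90+/CD133+ cells. PFKL, the liver-type subunit, was lower. It was at 95.06, 107.5, 134.3, 123.3 and 118.6 in CD90+/CD133- cells, at 114.8, 132.3, 146, 124.9 and 137.1 in CD90+/CD133+ cells and at 139.1, 152.4, 157.8, 165.8 and 142.6 in CD90-/CD133- cells. The CD90+/CD133- arrays were all below the CD90-/CD133- arrays. Its log2 fold change was -0.40 ± 0.06 (adjusted p = 0.000863) in CD90+/CD133- cells and -0.21 ± 0.06 (adjusted p = 0.0217) in CD90+/CD133+ cells, where it was lost without the block (adjusted p = 0.137). PFKM, the muscle-type subunit, was 1.16-fold lower in CD90+/CD133- cells (adjusted p = 0.0252, 0.244 without the block, and lost in 10 of 15 fits that left out an array or a number) and did not pass in CD90+/CD133+ cells (log2 fold change -0.15, adjusted p = 0.111).

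Among the PFKFB enzymes, which make and break the activator fructose 2,6-bisphosphate, PFKFB3 was the one that rose. It is the isoform with the highest kinase activity, and its intensities were 214.7, 180.3, 185.7, 184.2 and 164 in CD90+/CD133- cells, 184.1, 135.1, 132.5, 130.7 and 128.7 in CD90+/CD133+ cells and 98.5, 85.14, 73.65, 88.05 and 106.2 in CD90-/CD133- cells. Every CD90+ array lay above every CD90-/CD133- array. The log2 fold change was 1.05 ± 0.09 in CD90+/CD133- cells (adjusted p = 6.57e-05) and 0.65 ± 0.09 in CD90+/CD133+ cells (adjusted p = 0.000851). PFKFB2 and PFKFB4 were lower in CD90+/CD133+ cells, by 0.30 and 0.31 on the log2 scale (adjusted p = 0.0123 and 0.025), and neither call held without the block (adjusted p = 0.0514 and 0.126) or with a floor of 64 (log2 fold change 0, adjusted p = 1, and -0.24, adjusted p = 0.0672). The mean of PFKFB2's probe sets gave -0.06 (adjusted p = 0.311), and its 3 probe sets not used here were at 0.00158, -0.0582 and 0.106. PFKFB2 was at 0.02 and PFKFB4 at -0.19 on the log2 scale in CD90+/CD133- cells, and neither passed. PFKFB1, the liver-type isoform, stayed between 17.11 and 21.74 on all arrays.

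The changes of subunits can be set against each other within an array, as the log2 difference of 2 genes. Levels of different probe sets are not comparable, so only the shift between fractions is read, with no test. PFKP minus PFKL was 3.83 ± 0.22 (SD, n = 5) in CD90+/CD133+ cells and 4.03 ± 0.39 in CD90+/CD133- cells, against 2.99 ± 0.27 in CD90-/CD133- cells, shifts of 0.83 and 1.04, with no overlap. In CD90+/CD133+ and CD90+/CD133- cells, PFKFB3 minus PFKFB2 shifted by 0.96 and 1.02, ENO2 minus ENO1 by 1.07 and 0.96, PFKP minus PFKM by 0.77 and 0.86, and HK2 minus HK1 by 0.54 and 0.73. LDHA minus LDHB moved less, by 0.25 and 0.18, and ALDOC minus ALDOA shifted by 0.37 and 0.33. SLC2A3 minus SLC2A1 shifted the other way, by -0.73 and -0.64, and so did PDK1 minus PDK2, by -0.30 and -0.10. These shifts restate the fold changes of the single genes and are no separate result. The arrays of the fractions overlapped for HK2 minus HK1, LDHA minus LDHB and ALDOC minus ALDOA. They also overlapped for SLC2A3 minus SLC2A1 and PDK1 minus PDK2.

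**Figure D2:**
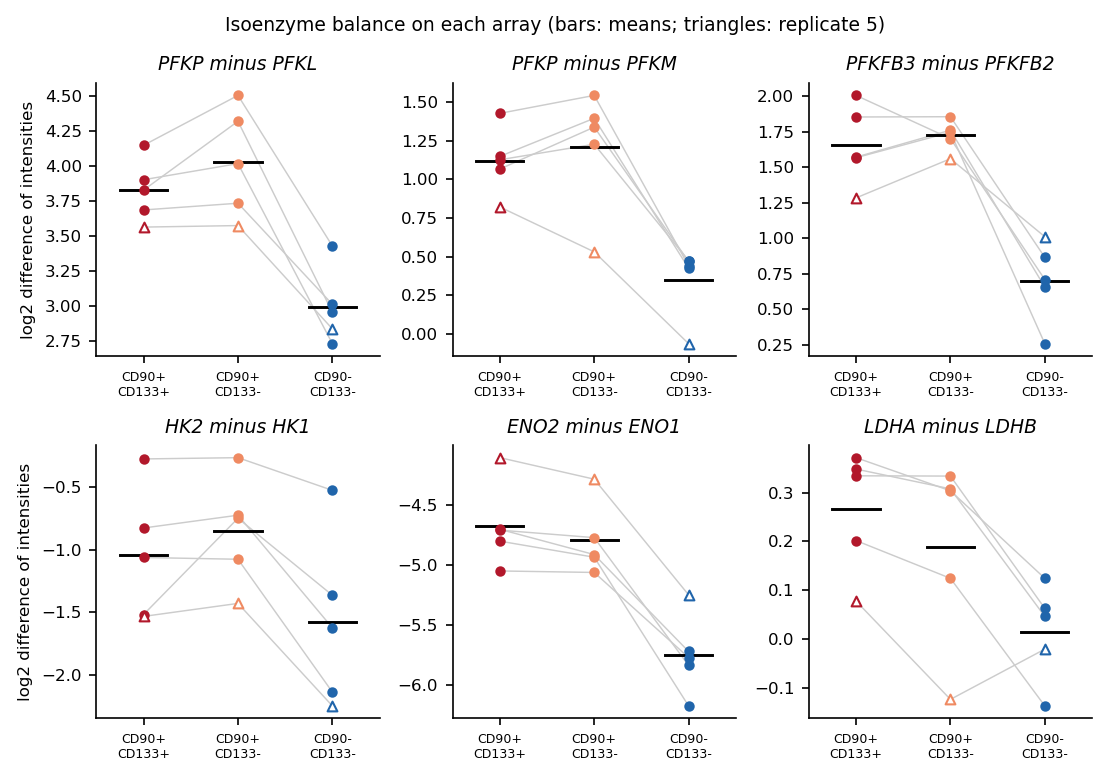
Log2 difference of the intensities of 2 isoenzyme genes (y axis) on each array, by fraction, with bars for means, triangles for replicate 5 and lines joining arrays of a replicate number. For PFKP minus PFKL and ENO2 minus ENO1 every CD90+ array is above every CD90-/CD133- array, while HK2 minus HK1 and LDHA minus LDHB overlap between fractions. SLC2A3 minus SLC2A1, PDK1 minus PDK2 and ALDOC minus ALDOA are not drawn.

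In lower glycolysis, PGAM1 and ENO2 were higher in both CD90+ fractions, and 3 of 7 genes were lower in CD90+/CD133- cells. PGAM1, phosphoglycerate mutase, was at 4976, 5536, 5057, 5409 and 3941 in CD90+/CD133- cells, at 5586, 6063, 5990, 6129 and 5543 in CD90+/CD133+ cells and at 3281, 3316, 3001, 3483 and 3137 in CD90-/CD133- cells. The CD90+/CD133+ arrays were above every array of both other fractions, and the CD90+/CD133- arrays above every CD90-/CD133- array. The log2 fold change was 0.61 ± 0.06 in CD90+/CD133- cells (adjusted p = 0.000107) and 0.85 ± 0.06 in CD90+/CD133+ cells (adjusted p = 2.03e-05), the smallest adjusted p among the 32 genes.

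The enolases moved in opposite directions. ENO2, the neuronal enolase, was at 173.8, 150.3, 148.2, 155.3 and 179.6 in CD90+/CD133- cells, at 176.6, 153.3, 192.3, 190.5 and 235.9 in CD90+/CD133+ cells and at 95.44, 99.14, 108.9, 107 and 130.2 in CD90-/CD133- cells. Its log2 fold change was 0.58 ± 0.07 (adjusted p = 0.000269) in CD90+/CD133- cells and 0.81 ± 0.07 (adjusted p = 4.63e-05) in CD90+/CD133+ cells, with no overlap in either. ENO1, the ubiquitous enolase and a far brighter probe set, was at 5323, 5026, 4054, 4685 and 3507 in CD90+/CD133- cells, at 4930, 5082, 5038, 4966 and 4069 in CD90+/CD133+ cells and at 6890, 5415, 6225, 5643 and 4954 in CD90-/CD133- cells. The ranges overlapped, and ENO1 was lower in 5 of 5 pairs in both comparisons, by 0.37 ± 0.07 on the log2 scale in CD90+/CD133- cells (adjusted p = 0.00476) and in CD90+/CD133+ cells by 0.27 ± 0.07 (adjusted p = 0.0238, 0.149 without the block). With the mean of its probe sets, ENO1 was at -0.18 in CD90+/CD133+ cells (adjusted p = 0.288).

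GAPDH, often used as a loading control, was at 19090, 19770, 17950, 19140 and 14140 in CD90+/CD133- cells, at 19020, 19360, 19670, 18860 and 16890 in CD90+/CD133+ cells and at 19860, 19680, 19100, 19890 and 18070 in CD90-/CD133- cells. All fractions overlapped, with CD90+/CD133- replicate 5 the lowest. GAPDH did not pass in CD90+/CD133- cells (log2 fold change -0.11, adjusted p = 0.135), where it did with quantile normalization (-0.17, adjusted p = 0.0128), nor in CD90+/CD133+ cells (-0.04, adjusted p = 0.646). TPI1 and PGK1, which make and use glyceraldehyde 3-phosphate and 1,3-bisphosphoglycerate, were lower in CD90+/CD133- cells, by 0.33 and 0.18 on the log2 scale (adjusted p = 0.00644 and 0.0116). Neither passed in CD90+/CD133+ cells, at -0.14 and -0.13 (adjusted p = 0.173 and 0.0523), and the PGK1 call was lost without the block (adjusted p = 0.0895). PKM, pyruvate kinase, was at 330.4 to 654.1 in CD90+/CD133- cells and 379.4 to 590.3 in CD90-/CD133- cells, and did not pass in either comparison. Aldolase did not pass either, with log2 fold changes of -0.16 for ALDOA and 0.17 for ALDOC in CD90+/CD133- cells.

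At the fate of pyruvate, PDK4 rose while PDHA1 and LDHB were lower in CD90+/CD133- cells. PDK4, a kinase that switches off pyruvate dehydrogenase, was at 56.36, 142, 205.3, 138.9 and 172.8 in CD90+/CD133- cells, at 45.84, 115.5, 262.4, 91.34 and 302.2 in CD90+/CD133+ cells and at 18.02, 81.66, 89.67, 65.42 and 120.3 in CD90-/CD133- cells. The fractions overlapped, with replicate 1 low in all of them, and PDK4 was higher in 5 of 5 pairs. Its log2 fold change was 1.05 ± 0.22 (adjusted p = 0.00609) in CD90+/CD133- cells and 1.04 ± 0.22 (adjusted p = 0.00653) in CD90+/CD133+ cells. Without the block these adjusted p were 0.292 and 0.305, and with a floor of 64 they were 0.0678 and 0.0536. Its other 2 probe sets were at the floor on all 15 arrays. PDK1, PDK2 and PDK3 did not pass, with log2 fold changes of -0.18, -0.09 and -0.27 in CD90+/CD133- cells. The other PDK2 probe set, about as bright (98.71 beside 98.76), was at -0.565 there, and with the mean of probe sets PDK2 passed (-0.325, adjusted p = 0.0349). PDK3 passed there among brighter genes (adjusted p = 0.0267) and on the values as deposited (adjusted p = 0.048). In CD90+/CD133+ cells PDK3 (-0.29, adjusted p = 0.0561) passed in 6 of 12 alternatives and PDK1 (-0.30, adjusted p = 0.0842) in 2.

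PDHA1, the catalytic subunit of pyruvate dehydrogenase, was at 2177, 1960, 1694, 1741 and 1506 in CD90+/CD133- cells, at 1982, 2012, 2095, 2008 and 2166 in CD90+/CD133+ cells and at 2559, 2462, 2266, 2338 and 2361 in CD90-/CD133- cells. Neither CD90+ fraction overlapped the CD90-/CD133- arrays. PDHA1 was lower by 0.41 ± 0.08 on the log2 scale in CD90+/CD133- cells (adjusted p = 0.00391), while the log2 fold change of -0.22 ± 0.08 in CD90+/CD133+ cells did not pass (adjusted p = 0.0647). PDHA1 passed there in 5 of 12 alternatives, among them the methods' t-test (adjusted p = 0.00541) and the mean of probe sets (adjusted p = 0.00317). It also passed in 2 of 15 fits that left out an array or a number, as without replicate 5 (adjusted p = 0.0335). LDHB, the lactate dehydrogenase subunit common in heart, was lower in both CD90+ fractions, at 9762 to 10790 in CD90+/CD133- cells and 9367 to 10200 in CD90+/CD133+ cells, against 11030 to 14190 in CD90-/CD133- cells (log2 fold change -0.27, adjusted p = 0.0011, and -0.31, adjusted p = 0.000461). LDHA, the subunit common in muscle, did not pass, at -0.09 and -0.06.

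In the pentose phosphate pathway, TALDO1 and TKT, the transaldolase and transketolase that shuttle sugars back to glycolysis, were lower and PGD, an oxidative-arm dehydrogenase, higher in CD90+/CD133+ cells, and TALDO1 alone passed in CD90+/CD133- cells. TALDO1 was at 2308, 2438, 2036, 2436 and 1681 in CD90+/CD133- cells, at 2062, 2341, 2693, 2459 and 2223 in CD90+/CD133+ cells and at 2858, 2940, 2868, 2850 and 3069 in CD90-/CD133- cells. Neither CD90+ fraction overlapped the CD90-/CD133- arrays. TALDO1 had a log2 fold change of -0.43 ± 0.10 in CD90+/CD133- cells (adjusted p = 0.0111) and -0.31 ± 0.10 in CD90+/CD133+ cells (adjusted p = 0.0477), and the second call was lost in 14 of 15 fits that left out an array or a number, and with median centring (adjusted p = 0.0789). The first call was lost in the fit of 2 fractions with the replicate block (adjusted p = 0.0549). TKT was at 977.2 to 1419 in CD90+/CD133+ cells, against 1572 to 1765 in CD90-/CD133- cells (log2 fold change -0.45 ± 0.09, adjusted p = 0.00401), and did not pass in CD90+/CD133- cells (-0.23, adjusted p = 0.0751). In the latter TKT passed with quantile normalization (adjusted p = 0.0432), among brighter genes (adjusted p = 0.0362) and in 2 of 15 fits that left out an array or a number. PGD was at 350.2 to 620.8 in CD90+/CD133+ cells, against 281.5 to 434.3 in CD90-/CD133- cells (0.55 ± 0.16, adjusted p = 0.0314), and did not pass in CD90+/CD133- cells (0.18, adjusted p = 0.518). The PGD call was lost in 11 of 15 such fits, and with the mean of its probe sets (log2 fold change 0.14, adjusted p = 0.14).

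**Figure D3:**
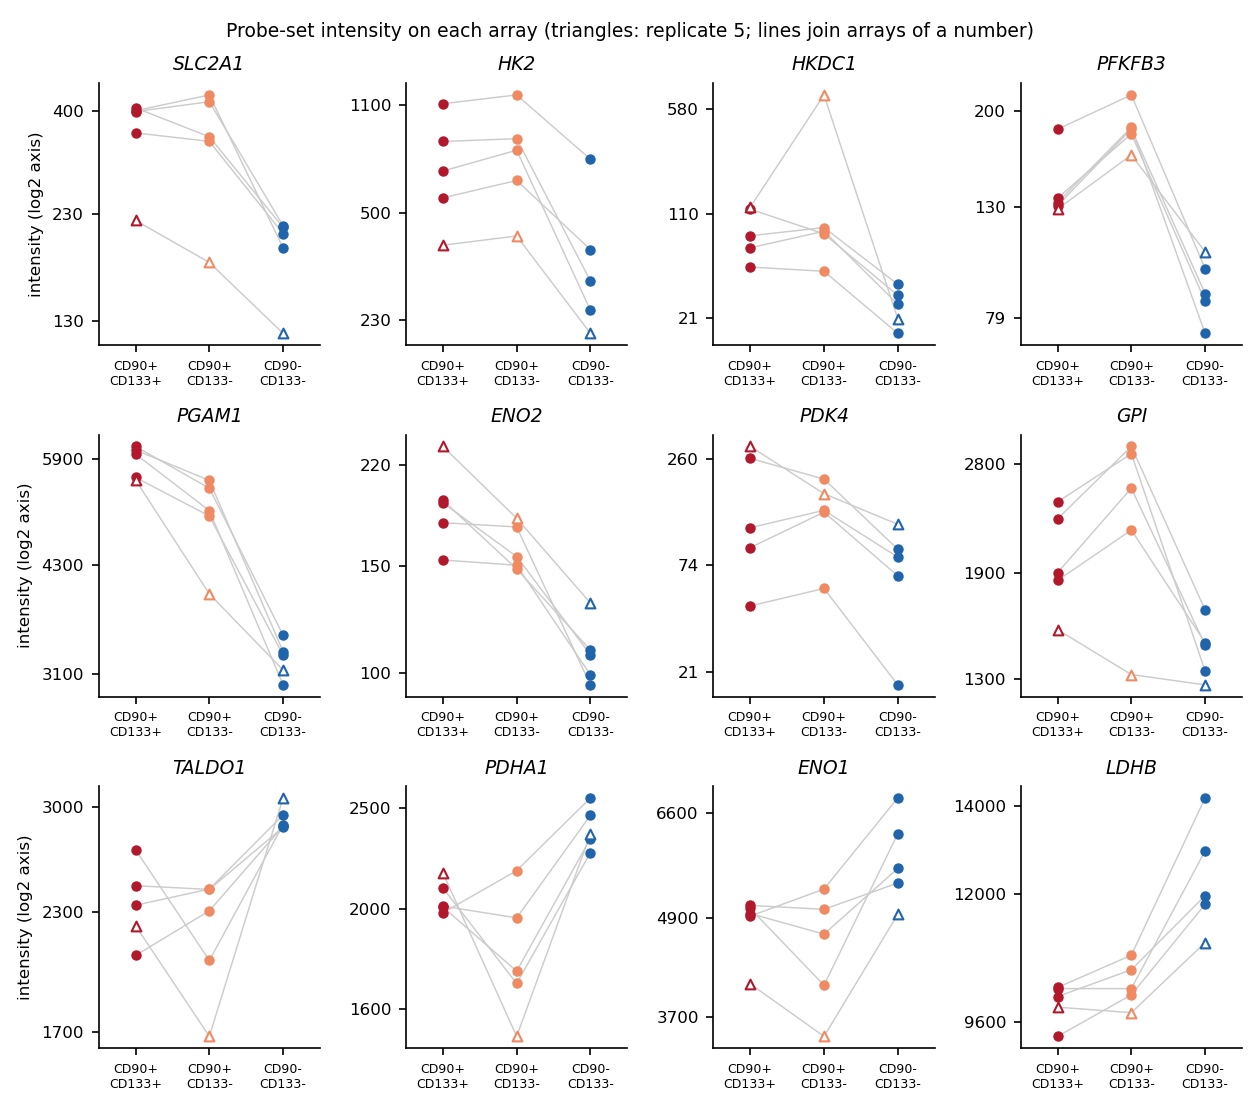
Intensity (y axis, log2 scale, 1 panel per gene) of 12 genes on each of 15 arrays, by fraction, with lines joining arrays of a replicate number and triangles for replicate 5. PFKFB3, PGAM1 and ENO2 separate both CD90+ fractions from CD90-/CD133- cells on every array, while HK2, PDK4 and GPI overlap between fractions and differ within each replicate number.

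The 2 CD90+ fractions were then compared with each other, which also tests the difference between the comparisons above, with CD133 as the gate that differs. PFKFB2 was the 1 gene of 32 that passed, lower in CD90+/CD133+ cells than in CD90+/CD133- cells, and no gene was higher. Of all genes, 4.61% were called, 2.30% higher and 2.31% lower. PFKFB2 was at 45.87, 45.49, 44.74, 36.18 and 52.87 in CD90+/CD133+ cells, against 66.04, 53.22, 55.38, 50.92 and 55.65 in CD90+/CD133- cells, and at 60.25, 54.03, 61.6, 48.34 and 52.72 in CD90-/CD133- cells. The difference between the CD90+ fractions passed narrowly (log2 fold change -0.33 ± 0.07, adjusted p = 0.0449, 0.167 without the block). The call was lost in 14 of 15 fits that left out an array or a number. The other 3 probe sets of PFKFB2 were at 0.159, -0.0604 and -0.0158, and the mean of all 4 at -0.06 (adjusted p = 0.456). At an unadjusted p under 0.05 limma gave 6 higher and 3 lower genes, and the methods' t-test 1 higher and 2 lower. PFKFB3 was lower in 5 of 5 pairs, by 0.39 on the log2 scale (95% interval -0.61 to -0.179, adjusted p = 0.0539), and PGAM1 was higher in 5 of 5, by 0.24 (95% interval 0.105 to 0.381, adjusted p = 0.0591). ENO2 was higher in 5 of 5 as well, by 0.22 (adjusted p = 0.0995). PFKFB3 passed without CD90+/CD133+ replicate 1 (adjusted p = 0.0469), PGAM1 without CD90+/CD133- replicate 5 (adjusted p = 0.0484) and ENO2 without CD90+/CD133- replicate 1 (adjusted p = 0.0446). A p that misses the threshold does not show that the fractions are alike.

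Several members lie near each other on a chromosome, so each was set beside its 30 nearest expressed genes that are not members, in RefSeq order. All 5 members on chromosome 10 (HK1, HKDC1, PFKP, PFKFB3 and PGAM1) were higher in both CD90+ fractions, and so were most of their neighbours. In CD90+/CD133- cells the neighbours' median log2 fold change was 0.43 to 0.58 there, with 18 to 24 of 30 called higher, while the median over 9988 expressed genes was -0.03. Over all genes, 14.8% were called higher and 17.6% lower in this comparison. Expressed genes were called more often: tested alone, 5815 of the 9988 were called, 47.6% of these as higher. HK1 and HKDC1 lie side by side and had the same neighbour median and counts, as did PFKP and PFKFB3, so these are not 5 separate neighbourhoods. HK1 changed less than its neighbours (0.38 beside 0.45), PFKP about as much (0.64 beside 0.58), and PFKFB3 (1.05 beside 0.58) and HKDC1 (2.18 beside 0.45) more. The other 5 genes that were higher had neighbours near or below 0, with medians of -0.18 for SLC2A1, -0.12 for HK2, -0.01 for GPI, 0.07 for PDK4 and -0.34 for ENO2. ENO2 lies on chromosome 12 close to TPI1 and GAPDH, and 19 of its 30 neighbours were lower. The neighbours of TALDO1 had a median of -0.56, beside -0.43 for the gene itself, and those of PDHA1 0.21, beside -0.41. What part the neighbourhood has in a member's change was not tested.

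**Figure D4:**
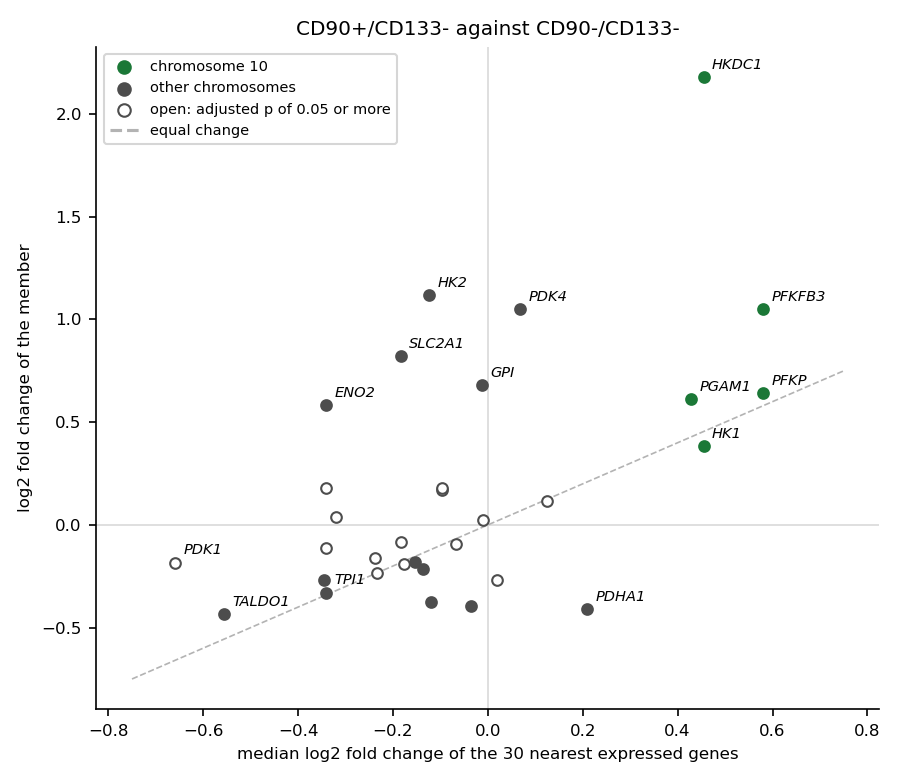
Log2 fold change of each of the 32 genes (y axis) and the median of its 30 nearest expressed genes (x axis) in CD90+/CD133- cells against CD90-/CD133- cells, with chromosome 10 in green and open symbols where the gene did not pass. The 5 green points lie at a neighbour median of 0.43 to 0.58, and HK2, SLC2A1, GPI and ENO2 lie above 0.5 with neighbours at or below 0. HK1 and HKDC1 share a neighbour median, and so do PFKP and PFKFB3.

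Other genes of the same pathways gave 51 measured of 57. Their list was not picked by how its genes moved, but it was made with earlier results of these arrays known. In CD90+/CD133- cells 11 were higher and 9 lower, and in CD90+/CD133+ cells 14 were higher and 8 lower, against the backgrounds above. Their median log2 fold change was 0.00 in both, and several of them, such as LDHD and PCK1, were at the floor on every array. FBP1, the gluconeogenic fructose bisphosphatase, which opposes phosphofructokinase, was at 256.8 to 480.3 in CD90+/CD133+ cells and 187.9 to 331.4 in CD90+/CD133- cells, against 62.08 to 267.1 in CD90-/CD133- cells, a log2 fold change of 1.52 (adjusted p = 0.000428) and 1.00 (adjusted p = 0.00395). PGM2L1 and PGM2, which handle glucose 1,6-bisphosphate and sugar phosphates, rose by 1.17 and 0.74 in CD90+/CD133- cells (adjusted p = 0.000734 and 0.000165). PGAM5 rose by 1.09 (adjusted p = 0.00028), but it encodes a mitochondrial protein phosphatase and not a glycolytic mutase. SLC2A10, a facilitative sugar transporter, was at 51.08 to 252.8 in CD90+/CD133- cells, against 91.45 to 427.7 in CD90-/CD133- cells (log2 fold change -0.997, adjusted p = 0.00083). SLC16A4, a monocarboxylate transporter family member, was at the floor on all CD90+/CD133+ arrays and on 4 of 5 CD90+/CD133- arrays, against 16 to 125.8 in CD90-/CD133- cells. It was called lower in both CD90+/CD133+ cells (adjusted p = 0.00754) and CD90+/CD133- cells (adjusted p = 0.00905). Its fold is not given, since 1 CD90-/CD133- array was at the floor too.

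A sign of RNA quality was compared between fractions. The log2 gap between the 3′ and 5′ control probe sets of GAPDH was 0.186 ± 0.079 (SD, n = 5) in CD90+/CD133- cells, 0.0498 ± 0.041 in CD90+/CD133+ cells and 0.0565 ± 0.032 in CD90-/CD133- cells. The first differed from the last with p = 0.0159 (exact permutation test, 2-sided), or 0.0714 after adjustment over 6 comparisons. For ACTB the gap was 2.46 ± 0.56 in CD90+/CD133- cells and 1.84 ± 0.32 in CD90-/CD133- cells (exact permutation p = 0.0714, adjusted p = 0.143). In CD90+/CD133+ cells it was 1.7 ± 0.66, with an exact permutation p of 0.0952 against CD90+/CD133- cells (adjusted p = 0.143) and 0.659 against CD90-/CD133- cells. The part of RNA quality in the changes was not tested.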

How the data were processed

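RNA of 3 sorted fractions, 5 arrays each, had been hybridised to Affymetrix U133 Plus 2.0 arrays. The authors normalized the arrays by the cross-correlation method and deposited a linear intensity for each probe set, the lowest being 5. How the probes were summarised is not given in the sources used here. That normalization was kept. Values under 16 were set to 16 before log2. The 54675 probe sets divide into 41097 that name a single gene, 1801 that name several and 11777 unnamed here, and 62 controls were set aside. The brightest single-gene probe set over all 15 arrays stood for each of 19775 genes, and levels of different genes were not compared. The number of arrays limits the precision.

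All 3 fractions entered 1 limma fit (version 3.58.1, R 4.3.3) with the replicate number as a block, and p-values were 2-sided and adjusted over every gene by the Benjamini-Hochberg method. Same-numbered arrays carry the same code in the labels, although numbers 4 and 5 share a code. Their deviations from the group means had r = 0.2 to 0.853 over 15 pairs of arrays. Between different numbers the mean r was -0.10 to -0.12 and the highest 0.193 to 0.384. For replicate 3, r was below the highest between different numbers in both comparisons of CD90+/CD133+ arrays (0.206 beside 0.229, and 0.371 beside 0.384), so its pairing is not clear. No array duplicated another (highest correlation 0.998). The script was tested on simulated data. The members and lists were chosen with earlier results of these data known. Values on every array are given for the 14 called members with the largest change in CD90+/CD133- cells, for GAPDH and, chosen after its values were seen, for PFKFB2, and 6 other pathway genes were named by size of change. Promoter sequences are from RefSeq (GRCh38.p14). The alternatives were no block, the label code as block, 2 fractions only, quantile normalization or median centring, probe sets averaged, a floor of 64 or none, brighter genes only (mean log2 over 6), an intensity trend, the methods' t-test (named there for no data type), arithmetic means, and leaving out each array or replicate number.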

Additional observations from a re-analysis of the deposited data

Results flagged for a closer look

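Of 96 groups of 5 arrays (32 genes in 3 fractions), 14 held an array whose gap to the others was large for the range of its group, where chance flags about 1 in 20 groups, or 4.8 of 96. Of the 14, 12 were in replicate 5. SLC2A1 was lowest there in each fraction, at 222.6 in CD90+/CD133+ cells (the others 356.3 to 407.6), 177.6 in CD90+/CD133- cells (340.5 to 437) and 121.3 in CD90-/CD133- cells (192.2 to 216.4). SLC2A3 was highest there in CD90+/CD133+ cells, at 75.53 (26.49 to 28.17), and in CD90-/CD133- cells, at 94.02 (19.44 to 24.94). PKM was lowest there in CD90+/CD133- cells, at 330.4 (606.1 to 654.1), and in CD90-/CD133- cells, at 379.4 (533.9 to 590.3). GAPDH was lowest there in CD90+/CD133+ cells, at 16890 (18860 to 19670), and in CD90+/CD133- cells, at 14140 (17950 to 19770). ENO1 was lowest there in CD90+/CD133+ cells, at 4069 (4930 to 5082), and TPI1 in CD90-/CD133- cells, at 5676 (6594 to 6800). HKDC1 was highest there in CD90+/CD133- cells, at 724.6 (44.27 to 88.5). Outside replicate 5, PFKM was low in CD90+/CD133+ replicate 4, at 694.6 (860.4 to 917.8), and PFKFB3 was high in CD90+/CD133+ replicate 1, at 184.1 (128.7 to 135.1).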

How the results depend on the processing

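No member changed direction past the threshold under any alternative. In CD90+/CD133- against CD90-/CD133- cells, 7 of 18 calls held under every alternative and every left-out array or number (PFKL, PFKP, PFKFB3, PGAM1, ENO2, LDHB and PDHA1), and in CD90+/CD133+ against CD90-/CD133- cells also 7 of 18 (SLC2A1, PFKP, PFKFB3, PGAM1, ENO2, LDHB and TKT). Without the replicate block, 4 and 8 of the 18 calls were lost. Leaving out an array or a number lost 4 calls at least once in CD90+/CD133- cells (HK1, PFKM, HKDC1 without replicate 4, and PGK1 without replicates 1, 3 or 4) and 9 in CD90+/CD133+ cells (HK1, HKDC1, GPI, PFKL, PFKFB2, PFKFB4, ENO1, PGD and TALDO1). For CD90+/CD133- cells, the fit of 2 fractions with no replicate block gave 4 higher and 4 lower members and 3749 genes, and the methods' t-test after Benjamini-Hochberg adjustment 4, 4 and 3473, beside 10, 8 and 6399. At an unadjusted p under 0.05 that test gave 9 higher and 6 lower members of 32, and 5675 of all 19775 genes. For CD90+/CD133+ cells, no replicate block gave 7 higher and 3 lower members and 4060 genes, beside 11, 7 and 6163, a floor of 64 gave 4 lower, 2 fractions with no replicate block gave 4032 genes and the methods' t-test 3761. Leaving out an array or a number gave 8 to 10 higher and 6 to 9 lower members and 4871 to 6270 genes in CD90+/CD133- cells, and 8 to 11, 2 to 9 and 4746 to 5732 in CD90+/CD133+ cells, where the 2 lower members came without replicate 4.

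Between the CD90+ fractions the count of 912 genes was unstable. It was 95 with no replicate block, 422 with the label code as block, 19 and 10 for the arrays of 2 fractions with and without the replicate block, 574 with a floor of 64, 1799 among brighter genes, 0 with the methods' t-test (2188 at an unadjusted p under 0.05, 4365 with limma) and 0 to 1023 on leaving out an array or a number, with 0 without replicate 4. Of the calls, 49.9% were higher, 61.1% with quantile normalization and 66.5% with median centring. The 1 lower member became 0 with no replicate block, with the label code, for 2 fractions, with quantile normalization, median centring or a floor of 64 and with the methods' t-test, 2 on the values as deposited, and 0 to 1 on leaving out an array or a number. With the mean of probe sets it was 1, but this was PFKFB3 (log2 fold change -0.39, adjusted p = 0.049) and no longer PFKFB2 (-0.06, adjusted p = 0.456). The 0 higher members became 1 with median centring and among brighter genes, and 0 to 1 on leaving out an array or a number. By arithmetic means 1 member, HKDC1, was past 1.5-fold lower, beside 0. The cause of these changes was not tested.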
